A study of Mus musculus with 14 samples.

Results

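Histone H3 lysine 9 acetylation (H3K9ac) was mapped by chromatin immunoprecipitation and sequencing in regenerating mouse liver. Described here are 723 H3K9ac regions that lie outside protein-coding genes and away from the ends of genes. Overlapping peaks of 12 libraries were merged into 57979 regions, and each of the 12 libraries had a peak in 12375 of them. The intergenic regions are those of the 12375 that were under 6000 bp wide, overlapped no protein-coding gene and lay more than 1 kb from every end of a coding or noncoding gene. The other shared regions were 6459 narrow regions at the ends of 1 coding gene, 1768 that joined the ends of several genes, 1599 inside coding genes away from their ends, 1042 broad regions and 784 at ends of noncoding genes. Presence in all libraries, width and position chose the intergenic regions, so none of these is a result.

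All livers were taken from male mice of strain C57BL6/J at an age of 2 to 3 months and were harvested 12 h after partial hepatectomy, the removal of part of the liver. The antibody was abcam's against H3 acetylated at lysine 9, and 6 libraries were titled d22 and 6 pbs. Titles and treatment labels contradict each other: the d22 libraries carry the label vehicle, given as 1/2 strength PBS, and the pbs libraries carry the label dextrose, 22.5% in vehicle. The pooled inputs of both title groups carry the dextrose label. Libraries were grouped by title, and no library is said here to be treated with either solution. The labels do not say whether the 6 libraries of a group were from 6 separate animals, and p-values therefore describe only the spread between these libraries.

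Depth ran from 6343891 tags in d22 4 to 13259411 in pbs 1, and the number of peaks was 44585 in d22 4 and 26352 to 30780 elsewhere. Each title group was called against its own pooled input (12526421 tags for d22, 10409931 for pbs), so input and group cannot be told apart. Tags were 48 bp long in pbs 1, pbs 4 and pbs 6 and 49 bp in the others. All 10 hepatocyte marker genes had a shared region at a gene end, against 1 of 10 macrophage, 0 of 8 neutrophil, 1 of 9 lymphocyte, 4 of 9 endothelial, 0 of 9 stellate, 1 of 7 cholangiocyte and 2 of 7 erythroid marker genes. Of these lists only the hepatocyte one had intergenic regions nearest to its genes, 3 in number, near Alb, Ttr and Tat. Liver is a mixed tissue, and fewer cells carrying a mark cannot be told apart from less of the mark per cell.

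H3K9ac is placed by histone acetyltransferases and removed by deacetylases, and it marks the promoters and enhancers of active genes. Enhancers are stretches of DNA that bind transcription factors and act on promoters at a distance, often skipping the nearest gene. In hepatocytes they bind factors such as HNF4A, FOXA and CEBP, and many serve genes of glucose, lipid and amino acid metabolism. Intergenic acetylated regions can also hold starts of noncoding RNAs that gene tables miss or list as alternative starts. The nearest gene is used below as a name for a region, not as its target.

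The start of a noncoding RefSeq transcript lay inside 4 of the 723 regions, each more than 1 kb inside the span of its noncoding gene. For 3 of them the window of 250 bases before to 50 after the start fell wholly inside the acetylated region, and these windows are shown because they hold the few RefSeq starts found in the 723 regions. They were taken from RefSeq on GRCm38.p6, the build called mm10, and run 5′ to 3′ on the minus strand. Capitals mark the only match found, the word TGTTTAC of FOXA factors, here on the other strand.

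8430426J06Rik, chr15:81247922-81248221: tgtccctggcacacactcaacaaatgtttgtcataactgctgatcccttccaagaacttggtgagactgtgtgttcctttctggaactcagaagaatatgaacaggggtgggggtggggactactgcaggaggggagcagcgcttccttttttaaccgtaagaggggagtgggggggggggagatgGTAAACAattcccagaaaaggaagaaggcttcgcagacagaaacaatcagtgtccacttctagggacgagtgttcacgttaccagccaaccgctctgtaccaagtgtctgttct

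C330002G04Rik, chr19:23058043-23058342: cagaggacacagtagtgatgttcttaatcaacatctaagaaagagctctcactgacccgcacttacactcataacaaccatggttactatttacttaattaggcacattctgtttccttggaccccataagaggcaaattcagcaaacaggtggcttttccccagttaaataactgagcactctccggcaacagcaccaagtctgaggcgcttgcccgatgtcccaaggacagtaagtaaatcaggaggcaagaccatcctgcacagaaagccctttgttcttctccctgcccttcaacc

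Gm33162, chr3:101517056-101517355: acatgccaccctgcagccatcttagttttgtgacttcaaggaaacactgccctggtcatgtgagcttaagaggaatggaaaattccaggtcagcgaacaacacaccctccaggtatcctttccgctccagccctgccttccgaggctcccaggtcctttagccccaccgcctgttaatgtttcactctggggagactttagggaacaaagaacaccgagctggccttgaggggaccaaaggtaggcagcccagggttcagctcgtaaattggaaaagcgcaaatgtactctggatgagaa

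The 8430426J06Rik start lay 55 bp from the median peak summit of its region, and the summits of the 12 libraries there had an SD of 34.8 bp. The C330002G04Rik and Gm33162 starts lay 278 and 594 bp from the summits, whose SDs were 63.3 and 126 bp. The words searched on both strands were TGTTTAC (FOXA), TTGCGCAA and TTGCACAA (CEBP), TGACTCA (AP-1, whose other form TGAGTCA is its reverse complement), CACGTG (E-box), CAAAGTCCA (HNF4) and TATAAA (the TATA box). TGTTTAC stood in 3.65% of 32851 RefSeq windows of the same 300 bases, CACGTG in 7.15%, TATAAA in 13.6%, TGACTCA in 5.2%, TTGCACAA in 1.01%, CAAAGTCCA in 0.475% and TTGCGCAA in 0.183%. The GC content of the 3 windows was 50.7%, 46.7% and 52.3%, against a median of 52.7% over all windows.

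These 3 regions differed in level and in evenness. H3K9ac levels are in CPM, the tags of a region scaled by its library's total over the 12375 shared regions. Each total was first adjusted by TMM, edgeR's scaling factor, which ran from 0.987 (d22 4) to 1.017 (pbs 6). The 8430426J06Rik region was weak, with a lowest, median and highest value of 8.63, 17.4 and 24.1 CPM in d22 and 8.99, 16.3 and 21.9 CPM in pbs. The C330002G04Rik region had 14.2, 54.7 and 74.7 CPM in d22 and 39.3, 52.0 and 60.4 CPM in pbs. The Gm33162 region had 28.5, 50.3 and 57.4 CPM in d22 and 34.5, 49.5 and 77.7 CPM in pbs. In all 3 the groups overlapped over most of their ranges.

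Most intergenic regions lay within 50 kb of a coding gene. The distance to the nearest coding gene had a median of 14.0 kb (quartiles 5.41 and 36.3 kb) over the 720 regions on chromosomes, while the remaining 3 lay on unplaced scaffolds of chromosome 4 with no gene to measure from. Of the 720, 171 lay 1 to 5 kb away, 110 at 5 to 10 kb, 316 at 10 to 50 kb, 62 at 50 to 100 kb and 61 beyond 100 kb. The density of tags did not follow distance: the median was 22.1 CPM per kb of called peak at 1 to 5 kb and 21.8 beyond 100 kb. By the gene's strand in the RefSeq promoter table, 309 of the 720 regions (42.9%) lay upstream of its start and 251 of 720 (34.9%) downstream of its end. The gene of the other 160 had no strand there. The nearest start of any gene in that table lay a median of 12.7 kb from the edge of a region, and 423 regions were more than 10 kb from every such start.

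**Figure D1:**
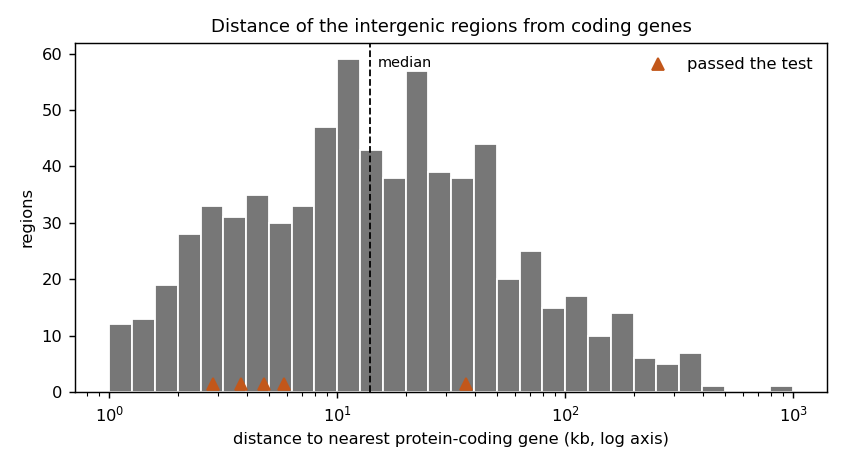
Number of intergenic regions (y axis) by distance to the nearest protein-coding gene in kb (x axis, log scale, 720 regions on chromosomes), with the median of 14.0 kb as a dashed line. Triangles mark the 5 regions described below as passing the test between title groups, of which 4 lay 2.84 to 5.84 kb from the nearest gene and 1 at 36.7 kb.

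Noncoding genes held 139 of the regions (19.3%) inside their spans, 133 of them long noncoding RNA genes. The regions had 605 different nearest coding genes: 512 genes had 1 region, 76 had 2 and 17 had 3 or more. Tomm20, a receptor of the mitochondrial import machinery, was nearest to 5 regions. Chd2, a chromatin remodeller, Gadd45g, a stress-response gene, and Ly86, a partner of an immune receptor, were each nearest to 4. Chromosome 4 had the most regions on assembled sequence (56), and the X chromosome had 11. For 535 of the 720 regions (74.3%) the nearest gene also had a shared H3K9ac region at one of its ends, and 471 of these 535 intergenic regions had fewer CPM per kb than the region at the gene. Where a gene had several such regions, the one with the most tags was taken, and it could be broad or join several genes. The comparison thus favours the region at the gene.

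Intergenic regions carried a lower density of tags than gene ends in every library. The per-library median of raw tags per kb of called peak was 28.4 (d22 4) to 54.5 (pbs 1) in intergenic regions and 38.7 to 83.1 in narrow gene-end regions. The log2 ratio of intergenic over gene-end density was -0.60 ± 0.08 (SD, n = 12 libraries), ran from -0.77 to -0.45 and was below 0 in 12 of 12 (two-sided exact sign-flip permutation test, p = 0.000488, the smallest it allows; adjusted over 7 tests, p = 0.00171). This ratio did not differ detectably between d22 (-0.58 ± 0.08) and pbs (-0.62 ± 0.08; SD, n = 6 each, two-sided exact permutation p = 0.450, adjusted 0.581). Against regions inside coding genes the ratio was close to 0, at -0.07 ± 0.03 (SD, n = 12), and below 0 in 12 of 12 libraries (exact sign-flip p = 0.000488, adjusted 0.00171). That small difference turned to 0.00723 (exact p = 0.582) when regions at noncoding gene ends were counted as intergenic too, 1241 in all.

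**Figure D2:**
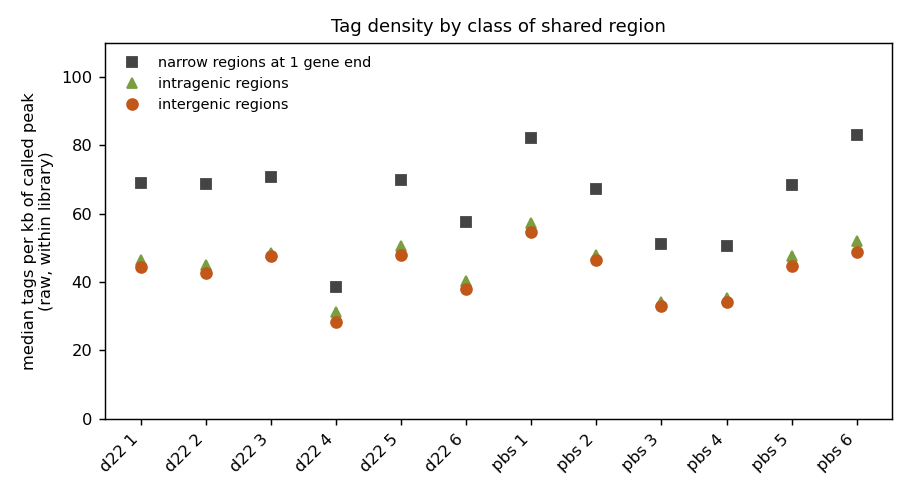
Median raw tags per kb of called peak (y axis) in each of the 12 libraries (x axis) for intergenic regions (circles), intragenic regions (triangles) and narrow regions at 1 coding gene end (squares). In every library the circle lies below the square and just below the triangle; levels between libraries also follow depth.

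Intergenic regions also differed from gene ends in other measures of the peaks. The median intergenic region had 61.3 tags per library, 1360 bp of called peak and a deposited fold enrichment over background of 19.0, against 123 tags, 1848 bp and 33.1 at narrow gene ends. The false discovery rate that the peak caller gave had a median of 12.2% in intergenic and 5.12% in gene-end regions. Peak summits were less fixed, with a median SD over libraries of 215 bp against 139 bp. Libraries also varied more: the median coefficient of variation within d22 was 29.2% and within pbs 23.2%, against 15.9% and 13.8% at gene ends. Counting error alone at these tag numbers is 12.8% in the median intergenic and 9.03% in the median gene-end region. Regions inside coding genes lay nearer to the intergenic ones, with a median fold enrichment of 21.0 and false discovery rate of 10.1%. Their median coefficients of variation were 25.1% within d22 and 21.6% within pbs. Their summits were less fixed than those of intergenic regions, with a median SD of 243 bp.

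Intergenic regions took nearly the same share of the tags in both groups. Of all tags in shared regions, 2.87 ± 0.193% lay in them in d22 and 2.80 ± 0.103% in pbs (SD, n = 6 per group, p = 0.483 by a two-sided exact permutation test, adjusted 0.581). Peaks covered a mean of 1515 ± 242 bp of each region in d22 libraries and 1603 ± 199 bp in pbs libraries (SD, n = 6 per group, p = 0.498 by exact permutation, adjusted 0.581). The log2 ratio of their fold enrichment over that of gene ends was -0.74 ± 0.10 for d22 and -0.82 ± 0.14 for pbs (SD, n = 6 per group, p = 0.284 by exact permutation, adjusted 0.581). None of these differences exceeded the spread between libraries, although exact permutation of 6 against 6 can reach p = 0.00216.

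The 8 intergenic regions with the most tags per kb fell into a pair of kinds. Near Chd2 and near Sp1, a general transcription factor, high density went with high fold enrichment. The region 75.1 kb from Chd2 (chr7:73616838-73620151) had 143, 152 and 161 CPM in d22 and 116, 160 and 210 CPM in pbs (lowest, median, highest), 58.2 CPM per kb and a fold enrichment of 70.0. The region 5.34 kb upstream of Sp1 (chr15:102397552-102400972) had 116, 125 and 143 CPM in d22 and 107, 130 and 145 CPM in pbs, 52.4 CPM per kb and a fold enrichment of 60.1. Its density was 52.4 against 47.5 CPM per kb at the end of Sp1 itself. In both regions the groups overlapped.

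The other 6 had more tags per kb with fold enrichments of only 10.1 to 35.8. The region 64.3 kb upstream of Cr2, a complement receptor of B cells (chr1:195241178-195242515), had the highest density of all 723, 176 CPM per kb, with a fold enrichment of 18.7. It had 140, 155 and 258 CPM in d22 and 107, 160 and 234 CPM in pbs. Its raw tags hardly followed depth, at 272 to 332 in d22 and 303 to 342 in pbs, and its summits had an SD of 6.17 bp. The pair near Csf2ra, a subunit of the GM-CSF receptor (chr19:61199168-61200539 and chr19:61265646-61267526), had 140 and 107 CPM per kb, fold enrichments of 28.5 and 12.6 and summit SDs of 5.00 and 14.3 bp. The region near Impact, a regulator of translation (chr18:12948803-12950779), had 75.8 CPM per kb, a fold enrichment of 10.1 and a summit SD of 7.32 bp. These 4 thus combined peaks at nearly the same base in 12 libraries with a fold enrichment between 10.1 and 28.5; the part of local background or of mapping in this was not tested.

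The last of the 8 lay near 9530057J20Rik on chromosome 8 (chr8:20121441-20124726 and chr8:19979661-19981122). The first held the most tags of any intergenic region, 213, 248 and 285 CPM in d22 and 176, 247 and 376 CPM in pbs. Over all 723 regions, CPM per kb and fold enrichment had a correlation of 0.75, a description across regions that share libraries and called lengths.

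**Figure D3:**
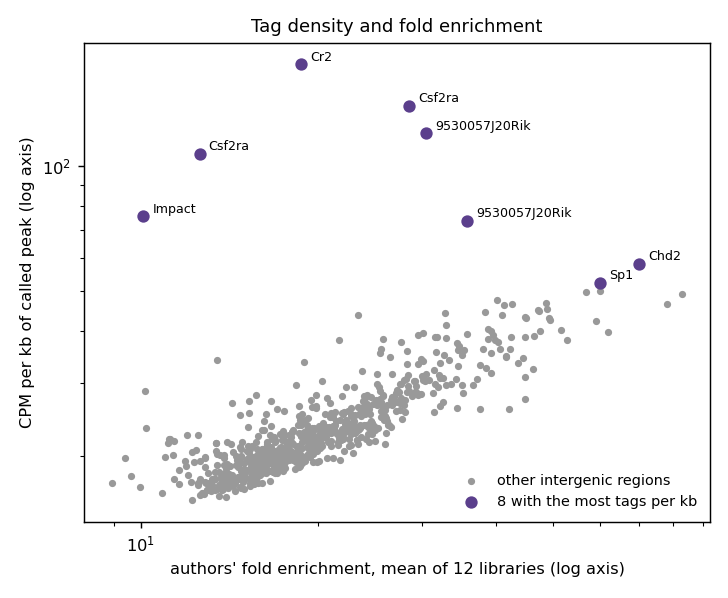
CPM per kb of called peak (y axis, log scale) against the authors' fold enrichment (x axis, log scale), both as means of 12 libraries, for each of the 723 intergenic regions. The 8 densest regions are named by nearest gene: those near Chd2 and Sp1 continue the main cloud, and 6 lie above it at fold enrichments of 10.1 to 35.8.

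Between the title groups, 6 of 723 intergenic regions (0.83%) passed the test, 3 higher and 3 lower in d22 (edgeR's quasi-likelihood test, p adjusted by Benjamini-Hochberg over all 12375 regions, threshold 0.05). Of all shared regions 1.01% passed, 0.453% higher and 0.558% lower, so intergenic regions passed at about the background rate. At an unadjusted p under 0.05 there were 93 intergenic regions (12.9%), against 10.9% of all. Other treatments of the counts gave 22 with library totals only (3.67% of all shared regions), 19 with DESeq2 (2.2% of all), 108 as fold enrichment (18.3% of all) and 2 with tag length as a covariate (0.38% of all). The median log2 fold change, d22 minus pbs, was 0.02 in intergenic regions and 0.00 in all, with 380 intergenic regions above and 343 below 0. TMM scales the libraries over these same 12375 regions and so holds the median of all near 0. These values therefore cannot show whether there was a general shift. With library totals only, the medians were -0.20 in intergenic regions and -0.22 in all. Precision was lower here: the median standard error was 0.23 in intergenic regions and 0.14 in all.

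The largest change was a loss in d22 on chromosome 2. The region 3.77 kb downstream of A930018P22Rik (chr2:104128519-104131225) had 13.7, 19.7 and 30.4 CPM in d22 and 46.5, 60.9 and 69.7 CPM in pbs (lowest, median, highest of 6). Every d22 library lay below every pbs library. The log2 fold change was -1.58 ± 0.18 (SE, edgeR adjusted p = 0.000443). The region at the gene itself changed by -0.24 (edgeR adjusted p = 0.607). The fold enrichment of the intergenic region was 12.49 in d22 and 33.2 in pbs, and peaks there covered a mean of 1096 and 1977 bp. It passed on leaving out each library, and it was also the only intergenic region to pass as tags per kb of called peak (log2 fold change -0.70, or -0.78 relative to the median of all regions, limma adjusted p = 0.0343).

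A further loss lay upstream of Ahcy, which encodes the enzyme that breaks down S-adenosylhomocysteine after methyl transfer. The region (chr2:155080332-155083694) lay 5.84 kb from the gene, inside the noncoding gene Gm45609, and its summit was 7.49 kb from the start of Ahcy. It had 13.3, 30.3 and 36.4 CPM in d22 and 48.7, 62.4 and 85.0 CPM in pbs. The groups did not overlap. The log2 fold change was -1.20 ± 0.19 (SE, edgeR adjusted p = 0.00542), and the call held on leaving out each library. The broad region over the Ahcy start had 228, 315 and 373 CPM in d22 and 316, 383 and 437 CPM in pbs, a change of -0.27 (edgeR adjusted p = 0.323). With tag length as a covariate the intergenic region changed by -1.05 (edgeR adjusted p = 0.0598).

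Insig1 encodes an endoplasmic reticulum protein that holds back the sterol-sensing activators of cholesterol and fatty acid synthesis. The region 36.7 kb upstream of it (chr5:28030861-28034745), inside the noncoding gene Gm35223, had 42.7, 75.6 and 93.1 CPM in d22 and 96.7, 133 and 142 CPM in pbs. The highest d22 library lay just below the lowest pbs library. The log2 fold change was -0.77 ± 0.17 (SE, edgeR adjusted p = 0.0344), and this was the only intergenic region nearest to a gene of the cholesterol list. The call was lost on leaving out d22 2, d22 3, d22 6 or one of pbs 2 to pbs 5 (highest edgeR adjusted p = 0.0825) and with tag length as a covariate (0.0529). The region at the Insig1 start had 82.5, 134 and 165 CPM in d22 and 145, 168 and 214 CPM in pbs. Its groups overlapped, and its change was -0.35 ± 0.14 (SE, edgeR adjusted p = 0.314).

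The 250 bases upstream of the Insig1 start, which lie inside that gene-end region, and those upstream of the Ahcy start, inside its own, are shown because the start and the distant region had lower medians in d22 at both genes. They are from RefSeq on GRCm38.p6, on the plus strand for Insig1 and the minus strand for Ahcy. Capitals mark the E-box CACGTG upstream of Insig1, and none of the words listed above was found in the Ahcy bases. Of all RefSeq windows, 6.02% hold CACGTG in these 250 bases. From summit to start, the intergenic region lies 38.6 kb before Insig1.

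Insig1 upstream, chr5:28071162-28071411: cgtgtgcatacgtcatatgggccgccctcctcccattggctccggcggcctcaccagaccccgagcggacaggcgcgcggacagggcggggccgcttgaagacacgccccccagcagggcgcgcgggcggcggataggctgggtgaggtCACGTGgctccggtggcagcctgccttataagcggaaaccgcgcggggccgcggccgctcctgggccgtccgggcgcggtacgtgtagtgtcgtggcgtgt

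Ahcy upstream, chr2:155074498-155074747: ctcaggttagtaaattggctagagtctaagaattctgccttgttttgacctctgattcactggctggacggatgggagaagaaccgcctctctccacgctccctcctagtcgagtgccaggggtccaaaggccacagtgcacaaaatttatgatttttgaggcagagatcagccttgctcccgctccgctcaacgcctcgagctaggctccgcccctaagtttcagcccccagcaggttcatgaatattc

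The gains in d22 described here lost their call when certain single libraries were left out. The region 4.78 kb upstream of Slc17a8, a vesicular glutamate transporter (chr10:89626032-89627909), had 15.1, 22.9 and 45.5 CPM in d22 and 6.54, 8.81 and 13.7 CPM in pbs. The groups did not overlap, but the pbs values rest on only 9 to 39 tags per library. The log2 fold change was 1.37 ± 0.28 (SE, edgeR adjusted p = 0.0234), and the call was lost without pbs 2, pbs 3, pbs 4 or pbs 5 (highest edgeR adjusted p = 0.0568).

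The region 2.84 kb upstream of 1700122O11Rik (chr17:48041132-48043005) had 37.0, 54.1 and 59.5 CPM in d22 and 30.5, 32.0 and 41.8 CPM in pbs. Its groups overlapped, since pbs 1 at 41.8 CPM lay above the lowest d22 library. The log2 fold change was 0.63 ± 0.14 (SE, edgeR adjusted p = 0.0392), and the call held only without d22 4 or pbs 1 (highest edgeR adjusted p on leaving out another library 0.0969).

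**Figure D4:**
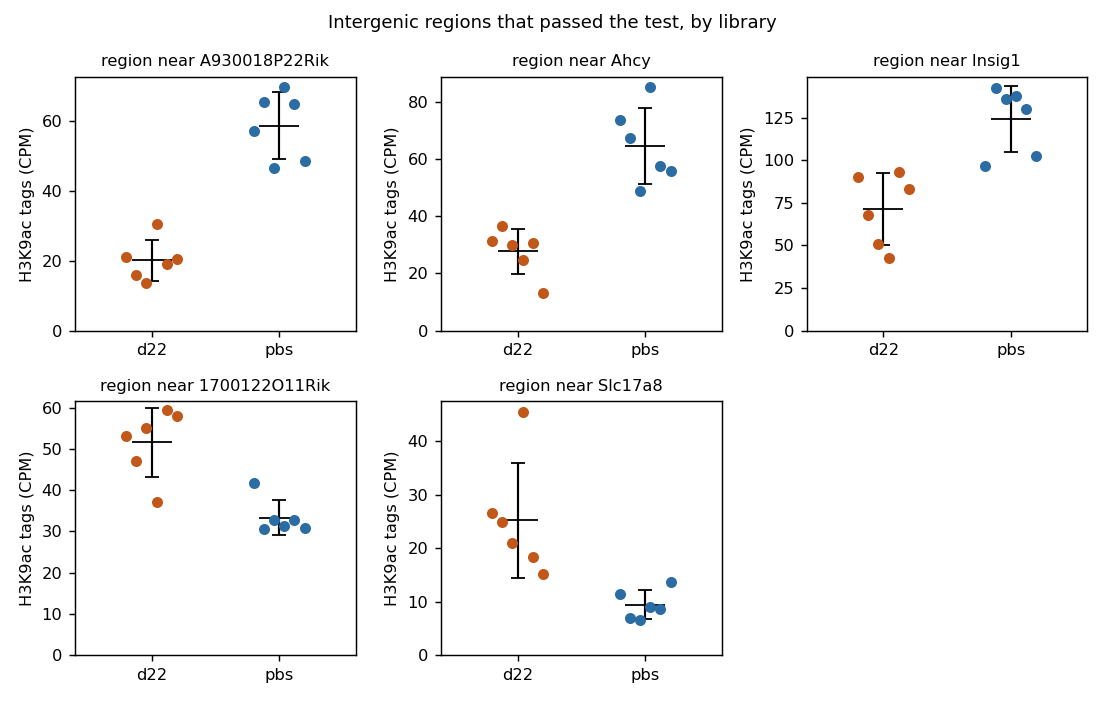
H3K9ac tags in CPM (y axis, from 0) of 5 intergenic regions that passed the test, by title group (x axis); points are the 6 libraries of a group and bars the mean ± SD. In 4 panels no d22 point overlaps the pbs points, and in that near 1700122O11Rik 1 pbs library at 41.8 CPM lies above the lowest d22 library at 37.0 CPM.

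In 10 intergenic regions the groups did not overlap, 5 higher and 5 lower in d22, against 0.59% and 0.743% of all shared regions. Those named here, which did not pass the test, were chosen after their values were seen. Near Klrb1c, a natural killer cell receptor gene, the region (chr6:128753720-128756336) had 18.0, 37.0 and 44.7 CPM in d22 and 50.2, 55.7 and 63.9 CPM in pbs (-0.72 ± 0.17 SE, edgeR adjusted p = 0.0604). Near Prelp, which encodes a matrix protein, it had 38.9, 48.9 and 58.8 CPM in d22 and 61.1, 64.2 and 72.4 CPM in pbs (-0.46 ± 0.11 SE, edgeR adjusted p = 0.0720). Higher in d22 were the regions near Azgp1 (0.25) and Tcim (0.70), with edgeR adjusted p of 0.299 and 0.163.

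The tag count of a region depends on how much of it the peak caller listed. Called length and tags had the same sign of change in each of the 6 regions that passed. The log2 length ratios were -0.85 (A930018P22Rik), -0.92 (Ahcy), -0.45 (Insig1), 0.81 (Slc17a8) and 0.31 (1700122O11Rik). Over the 723 regions the log2 fold change of tags and the log2 ratio of called length had a correlation of 0.86, as a description of regions that share libraries, and 562 had the same sign in both. As tags per kb of called peak, 1 intergenic region passed, against 0.0404% of all shared regions (limma). Of the 181 intergenic regions with exactly 1 peak in every library, 0 passed by edgeR, as in 0% of all such regions, and 18 (9.94%) had an unadjusted p under 0.05, against 7.08% of all such regions.

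**Figure D5:**
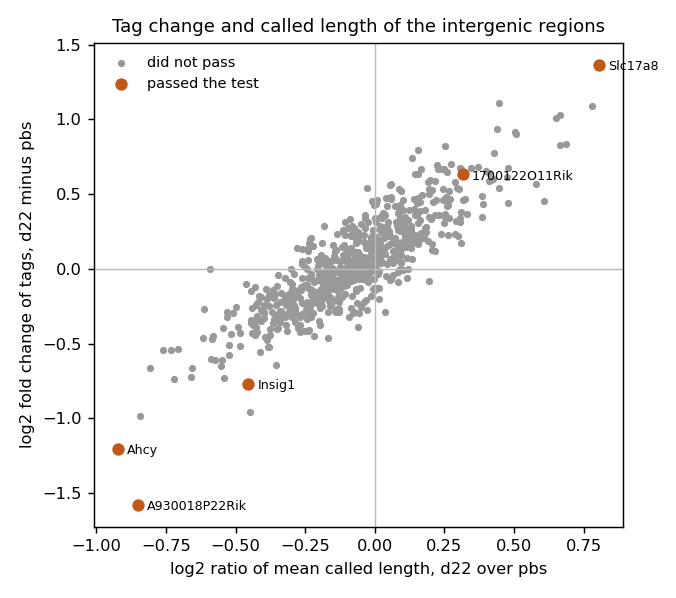
Log2 fold change of tags, d22 minus pbs (y axis), against the log2 ratio of the mean called length, d22 over pbs (x axis), for 722 intergenic regions. The points rise along the diagonal (correlation 0.86 over all 723), and each of the 5 marked regions that passed has both values of the same sign.

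Each list of metabolic genes had 1 to 7 intergenic regions. The gene lists below were chosen with earlier results of these data known; a region counts for a list when its nearest coding gene is a member within 100 kb. Glycolysis and sugar-response genes had 3 regions, with a median of 0.12. The strongest of them, 1.74 kb upstream of G6pc, the enzyme that releases free glucose (chr11:101360296-101365980), had 67.4, 106 and 163 CPM in d22 and 76.5, 99.0 and 130 CPM in pbs, so that the groups overlapped almost wholly.

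Near genes of gluconeogenesis and insulin signalling there were 7 regions, all with a log2 fold change above 0 and a median of 0.23, and 0 of 7 passed. Those with an unadjusted p under 0.05 were near Igfbp1, an insulin-repressed binding protein of growth factors, and Irs2, an adaptor of the insulin receptor. The Igfbp1 region (chr11:7192797-7194719) had 37.0, 50.3 and 65.7 CPM in d22 and 27.6, 36.3 and 48.4 CPM in pbs (0.46 ± 0.16 SE, edgeR adjusted p = 0.252). The Irs2 region (chr8:10935272-10938012) had 18.7, 29.7 and 43.9 CPM in d22 and 11.6, 19.4 and 35.4 CPM in pbs (0.56 ± 0.27 SE, edgeR adjusted p = 0.453). Both had higher medians in d22 with overlapping groups.

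Both regions near fat synthesis genes had values above 0, with a median of 0.51, and 0 passed. Near Elovl5, a fatty acid elongase (chr9:77909774-77912920), the region was strong and even, at 84.4, 98.0 and 105 CPM in d22 and 83.6, 87.9 and 105 CPM in pbs. Near Scd1, the desaturase that makes monounsaturated fatty acids (chr19:44387609-44389895), it had 15.03, 33.0 and 50.3 CPM in d22 and 10.9, 15.8 and 24.9 CPM in pbs (0.91 ± 0.27 SE, edgeR adjusted p = 0.153). Scd1 had a higher median in d22, but its groups overlapped.

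The 6 regions near fatty acid oxidation genes had a median of -0.18, 1 of 6 above 0, and 0 passed. Near Plin2, which coats lipid droplets (chr4:86688433-86690342), there were 18.0, 24.8 and 32.1 CPM in d22 and 30.8, 36.1 and 47.4 CPM in pbs (-0.57 ± 0.18 SE, edgeR adjusted p = 0.177). The Plin2 groups overlapped by little.

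Of 5 regions near urea cycle and amino acid genes 0 passed, with a median of 0.00. The region near Arg1, the last enzyme of the urea cycle (chr10:24946667-24949736), had 47.4, 56.8 and 66.2 CPM in d22 and 50.6, 56.7 and 71.0 CPM in pbs, nearly the same range. Near Cps1, its first enzyme (chr1:67112863-67116634), there were 12.1, 48.02 and 70.6 CPM in d22 and 54.2, 71.1 and 94.6 CPM in pbs (-0.73 ± 0.30 SE, edgeR adjusted p = 0.386). Near Bhmt, which remethylates homocysteine (chr13:93640039-93642033), there were 22.6, 34.5 and 63.6 CPM in d22 and 18.8, 24.4 and 39.4 CPM in pbs (0.54 ± 0.24 SE, edgeR adjusted p = 0.420).

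Genes of the secreted proteins had 4 regions and a median of 0.15, and 0 passed. The region 10.7 kb upstream of Alb, the gene of serum albumin (chr5:90446923-90450217), had 29.4, 49.6 and 79.7 CPM in d22 and 63.4, 73.3 and 77.4 CPM in pbs (-0.44 ± 0.19 SE, edgeR adjusted p = 0.404). The d22 libraries were spread over the whole pbs range and below it. Bile acid genes had 2 regions, with a median of 0.21 and 0 passing. That near Nr0b2, a repressor of bile acid synthesis (chr4:133561894-133564383), had 23.5, 33.5 and 51.9 CPM in d22 and 23.5, 45.1 and 47.4 CPM in pbs. The other lay near Fgfr4, the receptor for the gut hormone that lowers bile acid synthesis, with 15.8, 27.5 and 32.3 CPM in d22 and 6.54, 16.5 and 26.5 CPM in pbs (0.61 ± 0.28 SE, edgeR adjusted p = 0.431).

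Transcription factors of hepatocyte identity had 8 regions near 5 genes (Onecut2, Prox1, Ppara, Klf15 and Cebpb), 3 of 8 above 0 with a median of -0.09, and 0 passed. That near Onecut2 (chr18:64332043-64334126) had 46.0, 57.3 and 77.8 CPM in d22 and 47.4, 68.5 and 71.5 CPM in pbs. Immediate early genes, which respond first to a stimulus, had 4 regions with a median of 0.03, and 0 passed. The region 8.01 kb downstream of Fos (chr12:85485287-85487935) had 13.3, 37.0 and 50.5 CPM in d22 and 30.5, 39.4 and 51.7 CPM in pbs. Growth factor and cell cycle genes had 4 regions with a median of -0.02, and 0 passed. That near Smad7, an inhibitor of TGF-beta signalling (chr18:75341612-75343837), had 18.1, 44.4 and 49.3 CPM in d22 and 29.4, 44.5 and 50.1 CPM in pbs. In these 3 regions the groups overlapped.

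In the remaining lists 0 regions passed. Acute phase genes had 2 regions, the stronger near Fgg, the gamma chain of fibrinogen (chr3:82999258-83003247), at 21.1, 51.4 and 66.6 CPM in d22 and 25.6, 33.7 and 55.2 CPM in pbs. Xenobiotic P450 genes had 2, the stronger near Cyp2d10 (chr15:82416240-82418864) at 13.3, 28.7 and 35.4 CPM in d22 and 10.9, 22.4 and 30.2 CPM in pbs. Endoplasmic reticulum stress genes had 2, the stronger near Xbp1 (chr11:5490581-5493691) at 8.20, 18.1 and 29.4 CPM in d22 and 8.00, 25.3 and 42.5 CPM in pbs. The medians of these lists were 0.33, 0.01 and -0.11. Clock genes had 0 intergenic regions. All of these regions had overlapping groups.

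The log2 fold changes of intergenic regions and of the region at the nearest gene had a low correlation. Over the 535 regions whose nearest gene had its own shared region, the log2 fold changes of the pair had a correlation of 0.32, as a description of values from the same 12 libraries, and 321 had the same sign. Within 10 kb the correlation was 0.27 (222 regions). The log2 fold changes of intergenic regions had quartiles of -0.17 and 0.22, and their median standard error was 0.23. Error of that size can lower a correlation, and by how much was not tested. The low values thus do not show that the 2 kinds of region changed independently.

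Most intergenic regions stood alone, and a few formed runs. With neighbours counted as 1 run up to a gap of 12117 bp, 586 regions stood alone, 57 runs had 2 regions, 5 had 3 and 2 had 4. The longest run (chr9:78505705-78534173) lay between Eef1a1, a translation elongation factor, and Slc17a5, a lysosomal sialic acid transporter. Its strongest region (chr9:78518730-78522845) had 88.6, 107 and 128 CPM in d22 and 90.3, 125 and 169 CPM in pbs, and the mean levels of all 4 were 45.1, 116, 65.7 and 42.8 CPM in the order of the chromosome.

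The other run of 4 (chr15:85645240-85668172) lay between Wnt7b, a Wnt ligand, and Ppara, the nuclear receptor of fatty acid oxidation. From the Wnt7b side to the Ppara side its mean levels were 55.8, 49.6, 35.0 and 23.0 CPM, and its first region had 47.5, 56.7 and 75.9 CPM in d22 and 42.8, 52.3 and 66.8 CPM in pbs. Of the 5 runs of 3 regions, the one with the longest span, near Chd2 (chr7:73575883-73596300), had 29.1, 49.2 and 31.2 CPM. No region of these 3 runs passed the test, and the smallest edgeR adjusted p among them was 0.514.

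The farthest regions were of ordinary strength. The region 832 kb from Adam6a (chr12:114378300-114379725), inside the immunoglobulin heavy chain locus Igh, had 20.7, 22.7 and 26.9 CPM in d22 and 15.5, 21.0 and 29.9 CPM in pbs. The region 380 kb from Cyp7b1, an enzyme of oxysterol and bile acid metabolism (chr3:18623796-18626539), had 12.3, 73.5 and 82.0 CPM in d22 and 45.1, 63.1 and 86.9 CPM in pbs, with the 12.3 CPM in d22 4. The region 337 kb from Myc, the growth-promoting transcription factor (chr15:62327730-62329991), had 35.0, 38.3 and 77.8 CPM in d22 and 21.8, 29.0 and 37.8 CPM in pbs (0.58 ± 0.21 SE, edgeR adjusted p = 0.274). The Myc groups overlapped, and the 77.8 CPM was again d22 4, without which the log2 fold change was 0.37.

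The region 479 kb from Slc35b3, a Golgi transporter (chr13:39439847-39442210), had 15.2, 34.3 and 43.0 CPM in d22 and 41.5, 48.7 and 64.4 CPM in pbs (-0.64 ± 0.20 SE, edgeR adjusted p = 0.185). The region 383 kb from Usp25, a deubiquitinase (chr16:77499387-77501348), lay inside the noncoding gene Mir99ahg and had 18.4, 22.005 and 33.7 CPM in d22 and 20.4, 26.5 and 32.6 CPM in pbs. Of these 5 regions, 3 lay inside the span of a gene not listed as protein-coding, and 0 passed.

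The regions next to the limits of the definition were as follows. Just under 6000 bp was the region near Paqr9 (5929 bp, 74.5 CPM), and just over it those near G6pc (6154 bp, 93.9 CPM) and Xbp1 (6208 bp, 111 CPM). The Paqr9 region (chr9:95572021-95577949) had 63.1, 93.4 and 130 CPM in d22 and 28.5, 49.9 and 84.3 CPM in pbs (0.80 ± 0.25 SE, edgeR adjusted p = 0.187). Just beyond 1 kb of a noncoding gene end was a region at 1034 bp from an end of Lncbate6, with Ly86 as its nearest coding gene at 122 kb (9.81 CPM, the lowest of all 723). A region 1034 bp from the coding gene Dtx3l had 58.9 CPM. Just within it lay regions at 991 bp near Zfp219 (22.6 CPM) and at 980 bp from the noncoding Rpl27a-ps1, with Pald1 as its nearest coding gene at 5703 bp (40.8 CPM).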

How the data were processed

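The 723 regions and the gene lists were chosen with earlier results of these data known. The submitters' processing notes name CASAVA 1.8, Novoalign, mm10 and MACS 1.4.2. Each library was called alone against the pooled input of its title group with a p-value cutoff of 1e-05 and at most 1 tag per position, per the file headers. Per the file headers, the deposited columns are the raw count of tags in each peak, a score made from the log10 p-value, the ratio of fold enrichment and a false discovery rate in percent. The score was not used in any test, and the fold enrichment and false discovery rate are the authors' own values per peak.

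Peaks sharing at least 1 base were merged. A library's value in a region is the sum of the tags of its peaks there, its called length the sum of their lengths, and its fold enrichment that of the peak with most tags. A region absent from a list has no count, so only regions with a peak in all 12 libraries were tested. Genes came from a RefSeq table of GRCm38.p6 (49997 genes, 21900 protein-coding), and windows from RefSeq promoter sequences of that build. The sequences of the regions themselves were not analysed here.

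The quasi-likelihood test of edgeR 4.0.16 (R 4.3.3; robust, TMM, group only) was applied to the tags, with Benjamini-Hochberg adjustment over 12375 regions and a threshold of 0.05. Log2 fold changes are d22 minus pbs, and standard errors are the fold change over the root of F. One value per library was compared by exact permutation tests (SciPy 1.17.1). Tags per kb and fold enrichment were tested as log2 values with limma 3.58.1, and DESeq2 1.42.0 served as an alternative. Other alternatives were library totals only, a mean of at least 50 tags, leaving out each library, the replicate number as a block, tag length as a covariate, regions with exactly 1 peak per library, a distance of 5 kb, and inclusion of noncoding gene ends. Leaving out the unplaced scaffolds was chosen after seeing the data. On data simulated from the 12375 regions, edgeR found 48 of 100 regions with a 1.5-fold change, 94 of 100 with a 2-fold change, and 5 unchanged ones.

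Named regions were those that passed with 1 sign on leaving out each library, the 8 with the most tags per kb, the 5 farthest from coding genes, that with the most tags for each gene list, the 3 longest runs, and 2 on each side of the 6000 bp and 1 kb limits. Others with an unadjusted p under 0.05 or groups that did not overlap were added after their values were seen. A few regions that the rule gives are not reported here.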

Additional observations from a re-analysis of the deposited data

Results flagged for a closer look

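In 11 of 96 groups of 6 libraries, 1 library stood apart from the other 5: its gap to the nearest of them, as a share of the group's range, was above Dixon's critical value, which chance alone gives in about 1 in 20 groups. Library d22 4, the shallowest, was the one in 5 of the 11. It was highest near Ly86 (20.9 CPM against 5.27 to 9.47, share 0.731), Myc (77.8 against 35.0 to 39.5, share 0.895) and Impact (126 against 44.3 to 60.3, share 0.805). It was lowest near Cyp7b1 (12.3 CPM against 66.6 to 82.0, share 0.780). Its log2 ratio of intergenic over gene-end fold enrichment, -0.55, also lay above the -0.80 to -0.72 of the other d22 libraries (share 0.669).

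Library d22 1 was highest near Usp25 (33.7 CPM against 18.4 to 23.7, share 0.654) and in the first region of the Chd2 run (40.9 against 23.5 to 27.5, share 0.770). Library d22 6 was lowest near Smad7 (18.1 CPM against 41.5 to 49.3, share 0.748), where pbs 4 was lowest in its own group (29.4 against 42.9 to 50.1, share 0.653). Near Elovl5, pbs 4 was highest (105 CPM against 83.6 to 88.4, share 0.772). Near 1700122O11Rik, which passed the test, pbs 1 was highest (41.8 CPM against 30.5 to 32.8, share 0.792), and it is the library that made the groups overlap there.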

How the results depend on the processing

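The 6 intergenic regions that passed became 22 with library totals only (1 higher, 21 lower; 3.67% of all regions, whose median moved by -0.22), 108 as fold enrichment (8 higher, 100 lower; 18.3% of all, median moved by -0.30) and 19 with DESeq2 (9 higher, 10 lower; 2.2% of all). They became 2 with tag length as a covariate (0.38% of all) and 1 as tags per kb of called peak (0.0404% of all). Among regions with exactly 1 peak per library 0 passed (0% of all such regions). By the test that gave the 6 (1.01% of all), 3 of the 409 regions at least 5 kb from gene ends passed. So did 11 of the 1241 that include noncoding gene ends. Leaving out each library gave 2 to 9, with 3 without d22 2 and 2 without pbs 2, pbs 3, pbs 4 or pbs 5. The share of all shared regions that passed without each library was not counted, so these numbers cannot be read as particular to intergenic regions. The cause of the changes in number was not tested.

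The replicate block gave 6 regions (4 higher, 2 lower), with those near Insig1 (edgeR adjusted p = 0.0591) and 1700122O11Rik (0.0668) no longer passing. The share of all shared regions that passed with this block was not counted either. The numbers were not taken to pair libraries: same-numbered libraries had correlations of -0.0060 to 0.160, and only number 2 correlated best with its own number in both groups.

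On leaving out each library, the density ratio to gene ends was -0.61 to -0.58 and that to intragenic regions -0.08 to -0.06. The latter turned to 0.00723 with noncoding gene ends included, and its d22 minus pbs difference ran from -0.0220 to 0.0023, the last without d22 4. The difference in tag share was 0.0073 to 0.105 percentage points, in gene-end ratio 0.0073 to 0.0587, in called length -173 to -41.6 bp and in fold enrichment ratio 0.0340 to 0.104. In the simulation over all 12375 shared regions, 48 of 100 with a 1.5-fold change were found, so smaller changes would often be missed. Intergenic regions had a median of 61.3 tags per library and a median standard error of 0.23, against 0.14 in all. Their own detection limit was not simulated, and it cannot be read from that simulation.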
